A study of Homo sapiens with 6 samples.

Results

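The guanylate-binding proteins GBP1, GBP2, GBP3, GBP4 and GBP5 were followed in Ju77 cells, an established line from a human malignant mesothelioma, through every probe annotated to those 5 gene symbols. These are 5 of the 20044 genes named on the Illumina expression array, and they have 6 of its 47225 probes, 2 for GBP1 and 1 for each other gene. The tested cells were Ju77 resistant to ADI-PEG20, a pegylated arginine deiminase that removes arginine from the medium, with 3 arrays. They were set against parental Ju77, also with 3 arrays, which shares the tumour of origin and carries no labelled allele or treatment. The titles name 1 resistant line and 1 parental line with repeats, so resistance and anything else by which the lines differ cannot be told apart, and the labels do not tell separate cultures from repeats of one. The p-values therefore measure the spread between these arrays, which may be technical. RNA was extracted a day after plating, and the labels used here do not give the drug exposure of the resistant cells at that time. The arrays measure bulk RNA, so more cells with a transcript and more transcript per cell cannot be told apart.

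Guanylate-binding proteins are large GTPases of the dynamin superfamily that cells make in quantity after interferon gamma, and to a lesser degree after type I interferon. They assemble as coats on bacteria and on the vacuoles of parasites inside the cell, and from there engage the lipopolysaccharide sensor CASP4, the inflammasomes and pyroptotic death. GBP1, GBP2 and GBP5 end in a CaaX motif to which a lipid (farnesyl or geranylgeranyl) is attached, which ties them to membranes. GBP3 and GBP4 lack that anchor.

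The genes lie side by side on chromosome 1, and 3 of their promoters share a short motif. The windows of GBP2 and GBP5 were not analysed here. The sequences below are RefSeq sequences of build GRCh38.p14 that run from 250 bases before to 50 bases after the annotated gene start, 5′ to 3′ on the gene's own strand, which is the minus strand for all 3. They are shown because GBP1 was called higher in the resistant cells, GBP3 was not called and GBP4 was too dim to test, while each window holds the core of an interferon-stimulated response element (ISRE). Capitals mark matches to that core, GAAANNGAAA, or to the core of a gamma-activated site (GAS), TTCNNNGAA, searched on both strands. The GBP1 window is chr1:89065159-89065458, the GBP3 window is chr1:89022817-89023116 and the GBP4 window is chr1:89198893-89199192.
GBP1: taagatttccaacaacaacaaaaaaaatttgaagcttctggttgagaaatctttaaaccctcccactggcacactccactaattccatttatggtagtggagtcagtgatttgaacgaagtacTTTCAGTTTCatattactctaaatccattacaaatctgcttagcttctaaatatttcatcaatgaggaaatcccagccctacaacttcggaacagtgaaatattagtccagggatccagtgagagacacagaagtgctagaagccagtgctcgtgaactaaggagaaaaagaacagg
GBP3: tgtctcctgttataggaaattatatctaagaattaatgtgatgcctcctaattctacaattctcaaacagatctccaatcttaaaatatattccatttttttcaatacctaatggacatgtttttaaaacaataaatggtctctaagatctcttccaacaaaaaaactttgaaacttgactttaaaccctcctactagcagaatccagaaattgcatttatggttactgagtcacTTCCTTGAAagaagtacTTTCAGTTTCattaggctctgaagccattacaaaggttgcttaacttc
GBP4: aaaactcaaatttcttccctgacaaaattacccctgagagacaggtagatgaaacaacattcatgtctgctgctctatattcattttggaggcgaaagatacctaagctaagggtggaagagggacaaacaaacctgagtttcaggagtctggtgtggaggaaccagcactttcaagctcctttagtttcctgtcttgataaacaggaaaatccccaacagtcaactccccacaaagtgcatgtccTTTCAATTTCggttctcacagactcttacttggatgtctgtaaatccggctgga

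In GBP1 the ISRE core lay 127 to 118 bases before the annotated start. The same 10 letters, TTTCAGTTTC, stood in GBP3 at bases 3 to 12 after its start, and a GAS core stood 15 to 7 bases before it. In GBP4 the ISRE core, TTTCAATTTC, spanned the start, from position -4 to position 6. An ISRE core was found in 3.57% of 35116 promoter windows of the same length, and a GAS core in 7.66% of them. Of the 3 windows only that of GBP3 held both motifs, and they did not overlap there. Sites with letters other than these cores, in GBP1 or elsewhere, would be missed by this search. The GBP1 and GBP3 windows could be aligned over 156 columns with 75% identity, a stretch that includes the ISRE core in both. The windows of GBP6 and GBP7, other members of the cluster, held neither motif. A match describes letters in a window and does not show that a factor binds there.

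**Figure D1:**
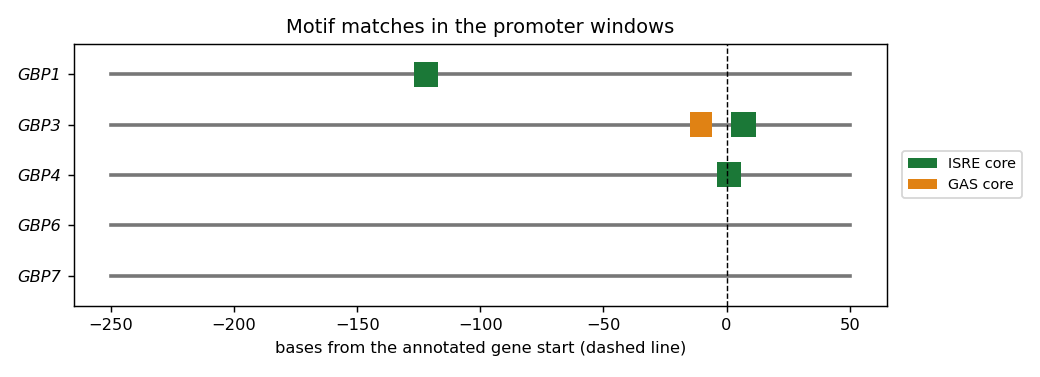
Matches to the ISRE core (green) and the GAS core (orange) in the promoter windows of GBP1, GBP3, GBP4, GBP6 and GBP7, by distance in bases from the annotated gene start. An ISRE core is seen in GBP1 at 127 to 118 bases before the start and close to the start in GBP3 and GBP4, and neither motif in GBP6 or GBP7.

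Between 19024 and 20113 probes per array were detected, that is, had a detection p-value under 0.05 against the array's background, and arrays of a group correlated at 0.992 to 0.995. Values below are background corrected, quantile normalised log2 intensities, and differences are resistant minus parental from limma fitted to the 17843 probes detected on all 3 arrays of at least 1 group. At an adjusted p under 0.05, 38.8% of those probes were called, 18.6% higher and 20.2% lower in resistant cells, so that a call alone is common in this comparison. Of the calls 48.0% were higher, against 26.5% under median scaling of the arrays. The number of arrays limits the precision of every value. The labelled cell type was checked against mesothelial markers, of which 8 of 11 were detected on all parental and 7 on all resistant arrays, among them mesothelin (MSLN), WT1 and the keratins KRT8 and KRT18. KRT5, ITLN1 and UPK3B were detected on all arrays of neither group. Of the 8 markers tested 1 was higher and 3 were lower, or 1 and 5 under median scaling. Of all tested genes, each by its brightest kept probe, 20.9% were higher and 21.4% lower. WT1 and KRT18 were called lower under median scaling (limma adjusted p = 0.0231 and 0.0264) but not in the main processing. In the main processing calretinin (CALB2) rose by 2.74 on the log2 scale, and PDPN, LRRN4 and BNC1 fell by 2.38, 0.79 and 0.61. A second CALB2 probe, also called, rose by 0.60, and 2 of 4 kept BNC1 probes were called lower. PDPN was detected on 1 of the 3 resistant arrays, and its fall was 0.96 at its smallest in other settings. Before normalisation the intensities of the 11 markers summed to 9586 to 10966 on the resistant arrays. On the parental arrays they summed to 11309 to 12233, without overlap. The mean intensity over all probes was also lower on the resistant arrays, 415 to 454 against 470 to 499. KRT8 alone averaged 6292 on the resistant and 7095 on the parental arrays, with a normalised log2 difference of -0.01. The part of these markers in the GBP differences was not tested.

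GBP1 and GBP2 were higher in the resistant cells, GBP3 did not pass the threshold, and GBP4 and GBP5 were too dim to be tested. Of the 6 probes, 4 were kept by the detection filter, and 3 of these were called higher and none lower, against the 18.6% and 20.2% of all kept probes. Each kept member was detected on all 6 arrays, so none entered the test through its brighter group alone. The members had been chosen with earlier results of these arrays known, and the count is a description of the family.

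GBP1, which binds bacterial lipopolysaccharide at the surface of invading bacteria and starts the coat, was measured by 2 probes. The brighter probe (ILMN_2148785) had intensities of 1225, 1029 and 1176 on the resistant arrays, against 283, 244 and 248 on the parental arrays. The second probe (ILMN_1701114) had intensities of 941, 551 and 598 on the resistant arrays, against 174, 185 and 172 on the parental arrays. On both probes every resistant array stood above every parental array, as groups did not overlap for 51.5% of all kept probes. Resistant replicate 1 stood apart from the other resistant arrays on the second probe but not on the first.

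After normalisation the brighter GBP1 probe averaged 10.16 ± 0.06 in resistant and 7.17 ± 0.22 in parental cells (SD, n = 3 each). The difference was 2.99 on the log2 scale (SE 0.12), or 7.94-fold with a 95% interval from 6.57 to 9.61, and a limma adjusted p of 3.19e-06. The second probe averaged 9.30 ± 0.41 in resistant and 6.10 ± 0.21 in parental cells (SD, n = 3 each). It differed by 3.20 on the log2 scale (SE 0.20), which is 9.22-fold with an interval from 6.64 to 12.8 (limma adjusted p = 2.87e-05). Both probes therefore rose, and by sizes that differed by less than the spread between arrays. The difference between them, 0.21 on the log2 scale, had an exact permutation p of 0.6 (two-sided), and the within-array differences of the groups overlapped. Among all 17843 probes these rises ranked 18th and 12th.

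GBP2, a second lipid-anchored member that together with GBP5 lowers the activity of the protease furin, had intensities of 281, 287 and 304 on the resistant arrays, against 153, 150 and 161 on the parental arrays. All resistant arrays were again above all parental ones, at a level closer to background. The normalised means were 7.69 ± 0.17 in resistant and 5.58 ± 0.06 in parental cells (SD, n = 3 each). The log2 difference of 2.11 (SE 0.11) is 4.32-fold, with an interval from 3.64 to 5.11 (limma adjusted p = 8.40e-06), and ranked 65th among the rises.

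GBP3, a member without a lipid anchor that joins the coat on bacteria, was present in both lines. Its intensities were 184, 146 and 144 on the resistant arrays, against 146, 163 and 155 on the parental arrays. The groups overlapped, and only resistant replicate 1 exceeded every parental array. The normalised means were 5.96 ± 0.37 in resistant and 5.58 ± 0.27 in parental cells (SD, n = 3 each). The log2 difference of 0.38 (SE 0.20) had a 95% interval from -0.08 to 0.85 and did not pass the threshold (limma adjusted p = 0.168). The interval reaches from 0.945-fold to 1.80-fold, and the lower limits for GBP1 and GBP2 lay above it.

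GBP4, which takes part in the coat that recruits CASP4, had intensities of 141, 122 and 133 on the resistant arrays, against 123, 125 and 133 on the parental arrays. Detection was reached on 2 of the 3 resistant arrays and on no parental array. GBP5, a lipid-anchored member linked to NLRP3 inflammasome assembly, had intensities of 129, 115 and 127 on the resistant arrays, against 117, 125 and 118 on the parental arrays, with detection on 1 resistant array and on no parental array. These signals lie close to the lowest detected intensities of the arrays, 124 to 138. With no detection filter, over 47225 probes, GBP4 had a log2 difference of 0.46 (SE 0.12) and a limma adjusted p of 0.0552, and GBP5 one of 0.29 (SE 0.13) and an adjusted p of 0.237. The normalised values of GBP4 did not overlap between the groups, as for 51.5% of all kept probes, of which GBP4 is not one. Before normalisation the GBP4 intensities of the groups did overlap. The GBP5 values overlapped on both scales. No fold is given for either.

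**Figure D2:**
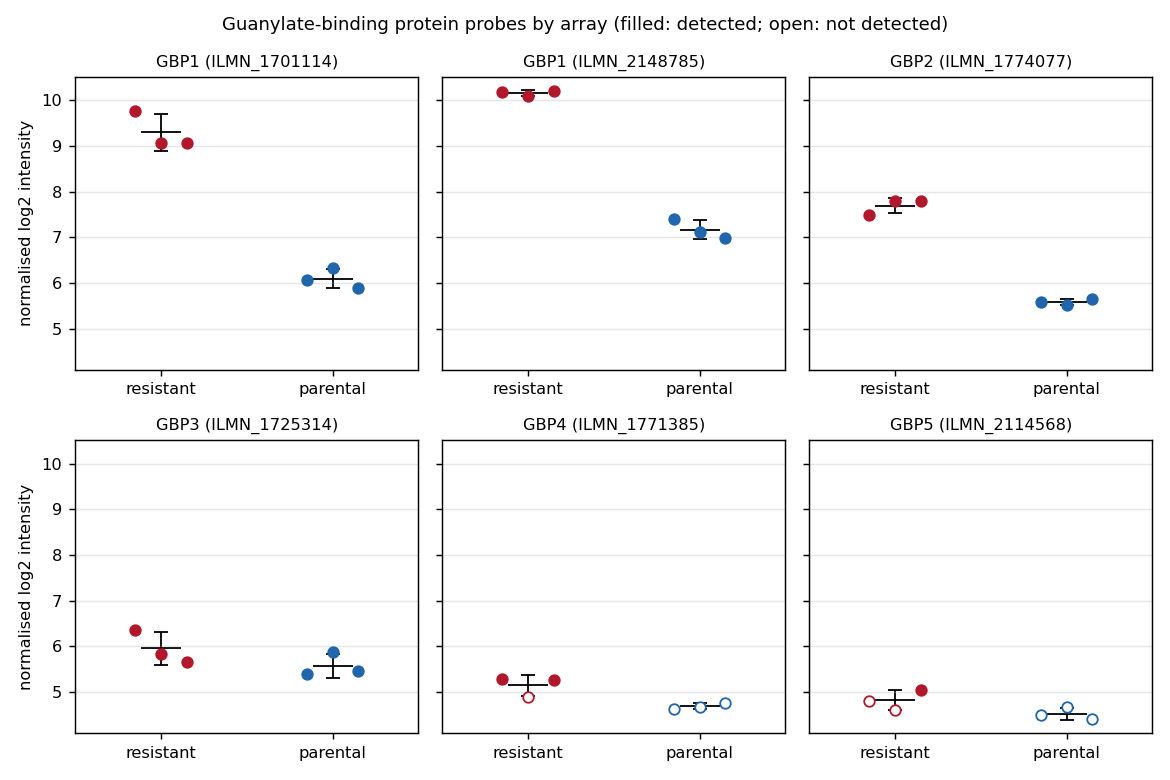
Normalised log2 intensity of the 6 probes of GBP1 to GBP5 on the 3 resistant (red) and 3 parental (blue) arrays, with the mean and SD in black and open points for arrays on which the probe was not detected. The GBP1 probes average 10.16 and 9.30 in resistant cells against 7.17 and 6.10 in parental cells, GBP2 is likewise separated (7.69 against 5.58), and the GBP3 groups overlap.

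The sizes of the rises were compared within arrays, as the log2 difference between 2 probes on the same array, for all 6 pairs of kept probes. The GBP1 rise exceeded that of GBP2 by 0.88 on the log2 scale with the brighter GBP1 probe and by 1.10 with the second. It exceeded the GBP3 difference by 2.61 and 2.82, and GBP2 exceeded GBP3 by 1.73. In these 5 pairs the resistant and parental arrays did not overlap, and the exact permutation p was 0.1, the smallest that 3 arrays against 3 allow (0.12 adjusted over the 6 pairs), so no pair could pass a threshold of 0.05.

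The folds depend on how the background is removed. Without background correction the log2 difference was 1.05 for GBP2, and with the authors' deposited log2 table it was 1.10, both still past the threshold. The second GBP1 probe had a log2 difference of 2.11 without background correction, the brighter one 2.34 and GBP3 0.14. As plain ratios of mean intensities, resistant over parental, the brighter GBP1 probe stood at 4.42, the second at 3.94, GBP2 at 1.88 and GBP3 at 1.02. The order of GBP1 above GBP2 above GBP3 was the same on each of these scales, while the 2 GBP1 probes changed places.

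**Figure D3:**
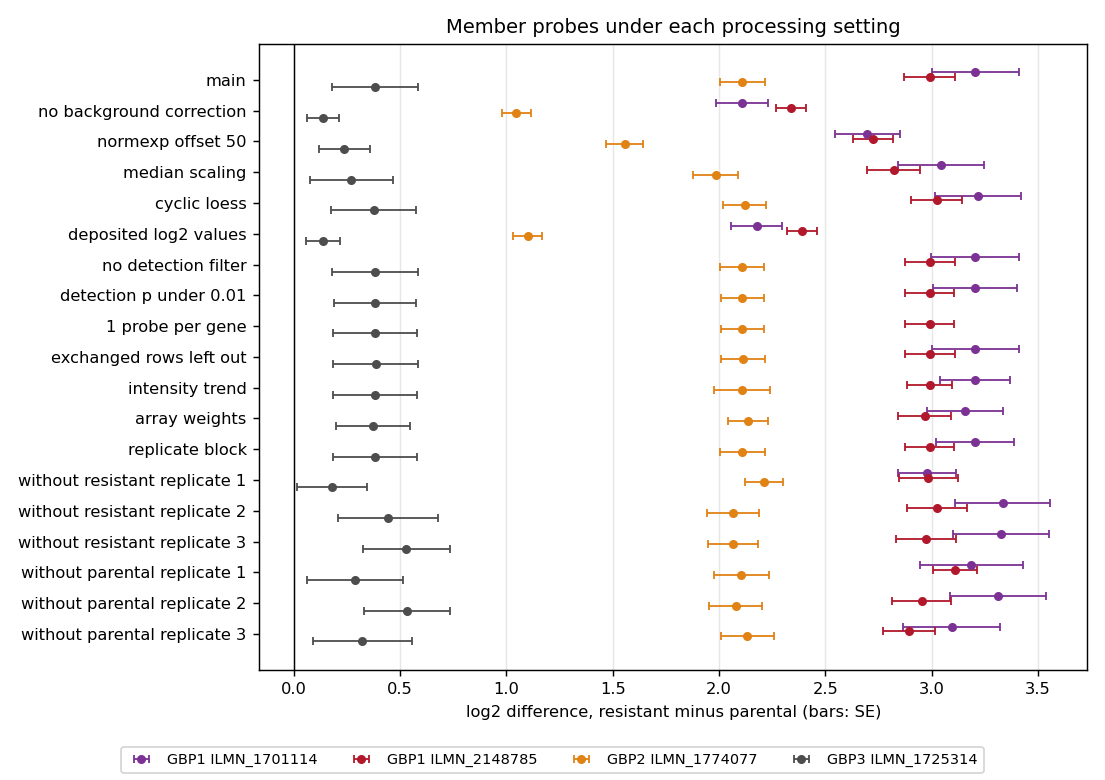
Log2 difference (resistant minus parental, bars are SE) of the 4 kept probes under the main processing, at the top, and 18 other settings. GBP1 and GBP2 stay right of zero throughout, with GBP2 at 1.05 without background correction against 2.11 in the main processing, and GBP3 lies between 0.14 and 0.53.

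The rest of the gene cluster was read in map order from the GRCh38.p14 gene table. The order is GBP3, GBP1, GBP2, GBP7, GBP4, GBP5, GBP6 and the pseudogene GBP1P1, with the called members GBP1 and GBP2 between GBP3 and GBP7. GBP1P1, named as a pseudogene of GBP1, had intensities of 204, 182 and 191 on the resistant arrays, against 130, 127 and 137 on the parental arrays. Detected throughout the resistant arrays and never on the parental ones, it entered the test through the resistant arrays alone. On the background-corrected scale it was at least 3.29-fold higher in the resistant cells (limma adjusted p = 5.83e-06), and its log2 difference, 1.83 in the main processing, was 0.66 at its lowest in other settings. As with the other folds given below as at least some value, the bound holds for that scale only. Whether its probe and the GBP1 probes pick up each other's transcripts was not tested, since no probe sequence was used here. GBP6, by 2 probes, and GBP7 were detected on no array, with intensities from 103 to 123.

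The 10 protein-coding genes on each side of the cluster were mostly not called. Of these 20 genes 15 were tested, with 1 higher and 2 lower and a median log2 difference of 0.03, beside 20.9% higher and 21.4% lower and a median of -0.0039 over the 10672 tested genes, each by its brightest kept probe. GTF2B, a general transcription factor on the GBP3 side, rose by 0.39 on the log2 scale (limma adjusted p = 0.0124), a call lost under median scaling of the arrays (adjusted p = 0.136). LRRC8B and LRRC8C, subunits of the volume-regulated anion channel next to GBP1P1, fell by 1.14 and 0.83 (limma adjusted p = 6.66e-04 and 0.00106). LRRC8C was detected on 1 of the 3 resistant arrays and entered the test through the parental arrays alone. Its log2 fall was 0.25 at its smallest in other settings. KYAT3 and RBMXL1, the nearest genes on the GBP3 side, had log2 differences of 0.03 and 0.08 and were not called.

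**Figure D4:**
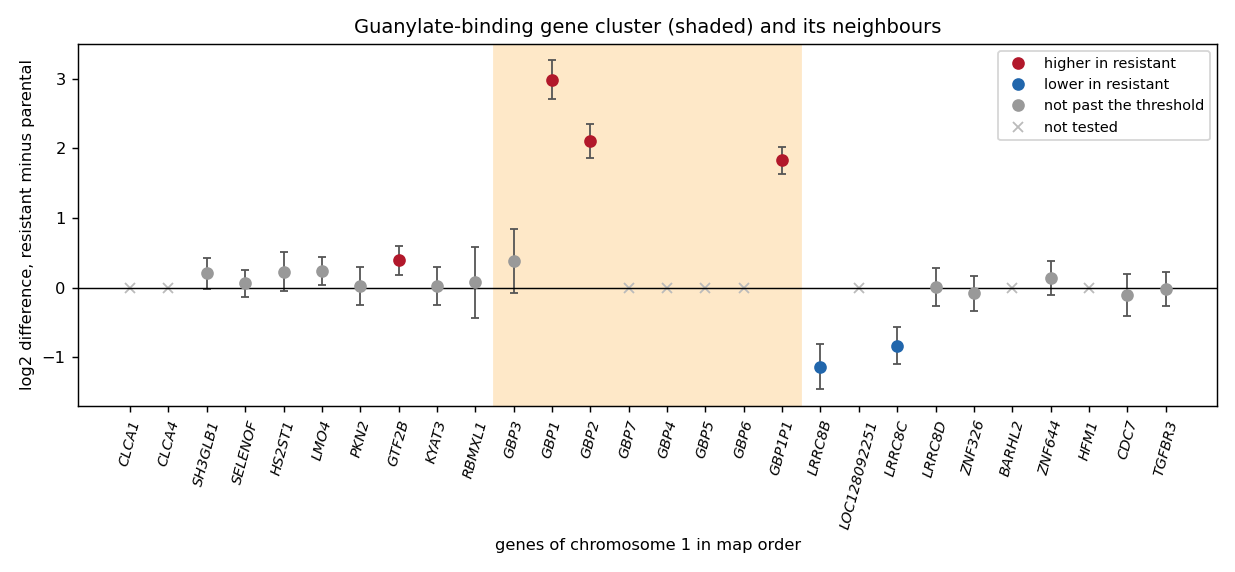
Log2 difference (resistant minus parental, bars are 95% intervals) of the guanylate-binding genes (shaded) and their neighbours on chromosome 1 in map order, with grey crosses for genes that were not tested. GBP1, GBP2 and GBP1P1 stand between 1.83 and 2.99, and the neighbours between -1.14 and 0.39.

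Genes that carry the interferon signal to GBP promoters were mostly higher or not past the threshold. Of 16 listed receptors, kinases and transcription factors 12 were tested, with 6 higher and 1 lower, or 4 and 1 under median scaling, beside 20.9% higher and 21.4% lower of all tested genes. Their median log2 difference was 0.32. IRF9, the DNA-binding part of the complex that reads ISREs, averaged 9.93 ± 0.20 in resistant and 8.11 ± 0.17 in parental cells (SD, n = 3 each) and rose by 1.82 on the log2 scale (SE 0.13, limma adjusted p = 5.28e-05). IRF1, the interferon-gamma-induced factor that drives GBP transcription, averaged 9.16 ± 0.26 in resistant and 8.32 ± 0.08 in parental cells (SD, n = 3 each) and rose by 0.84 (SE 0.13, limma adjusted p = 0.00215). The interferon gamma receptor chain IFNGR1 rose by 0.75 and STAT3, a signal transducer, by 0.62. JAK2, the kinase on the other receptor chain, had a log2 difference of 0.21 with an interval from -0.05 to 0.47 and was not called (limma adjusted p = 0.177). The member that was lower, NFKB1, fell by 0.35 (limma adjusted p = 0.0150). STAT2 was not analysed here, and IRF2 and IRF8 were detected on all arrays of neither group.

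Brakes on the same pathway were also among the called genes. Of 6 tested, 3 were higher and 1 lower, or 2 and 2 under median scaling, beside 20.9% higher and 21.4% lower of all tested genes. The median log2 difference of the 6 was 0.42. SOCS1, SOCS3 and USP18 entered the test through the resistant arrays alone, and SOCS3 was not called. SOCS1, which blocks the receptor kinases and is itself an interferon gamma target, rose by 1.22 (SE 0.13, limma adjusted p = 3.72e-04) with detection on 2 of the 3 parental arrays. USP18, which removes ISG15 and damps the type I receptor, had no detection on the parental arrays and was at least 2.62-fold higher, with a lowest log2 difference of 0.61 in other settings. SOCS1 went down to 0.41. The phosphatase PTPN2 fell by 0.46 on the log2 scale (limma adjusted p = 0.0146).

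Of 20 other listed targets of interferon gamma 15 were tested, with 8 higher and 2 lower, or 7 and 4 under median scaling. Of all tested genes 20.9% were higher and 21.4% lower. The median log2 difference of the 15 was 0.36. All 15 were detected on every resistant array and 10 of them on every parental array. The rest, CXCL10, CXCL11, IDO1, UBD and APOL3, entered the test through the resistant arrays alone. All of these but APOL3 were called higher, so the count of higher genes depends in part on the filter. UBD, a ubiquitin-like modifier, rose by 3.88 (SE 0.17), the chemokine CXCL10 was at least 5.39-fold higher and IDO1, the first enzyme of tryptophan breakdown, at least 2.86-fold higher, and the peptide transporter TAP1 rose by 1.46. UBD was detected on 2 of the 3 parental arrays, and CXCL10 and IDO1 on none. In other settings the log2 difference went down to 2.14 for UBD, 1.22 for CXCL10 and 0.66 for IDO1. CD274, the checkpoint ligand PD-L1, and the adhesion molecule ICAM1 fell by 0.72 and 0.51 on the log2 scale. CXCL9, CIITA, NLRC5, CD74 and FCGR1A, all classical interferon gamma targets, were detected on no array, and HLA-DRA had a log2 difference of 0.04 (limma adjusted p = 0.866).

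A list of other interferon-induced proteins and immunity-related GTPases had 3 of 5 tested genes higher and none lower. Under median scaling 2 were higher. Of all tested genes 20.9% were higher and 21.4% lower. IFI44, an interferon-induced protein, rose by 1.78 (SE 0.08, limma adjusted p = 5.89e-06). MX2, a dynamin-like antiviral GTPase, had no detection on the parental arrays and was at least 2.62-fold higher (limma adjusted p = 0.00111), having entered the test through the resistant arrays alone, with a lowest log2 difference of 0.57 in other settings. Its neighbour MX1 reached detection on 1 parental and no resistant array and was not tested. IFI44L had 2 kept probes, the brighter with a log2 difference of 0.12 and no call and the dimmer called higher. RNF213, a ubiquitin ligase that coats bacteria, had a log2 difference of 0.29 (limma adjusted p = 0.0254), a call lost in 6 of 18 other settings (adjusted p up to 0.230), and its other kept probe one of 0.03 with no call. The atlastins, the nearest GTPase relatives of the GBPs, act on the endoplasmic reticulum, and of the 2 tested ATL3 fell by 0.32 (limma adjusted p = 0.0168) and ATL1 was not called.

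Enzymes that attach and process the lipid anchor were all detected. Of the 6, FNTA, the shared alpha subunit, rose by 0.35 on the log2 scale, and PGGT1B, the beta subunit of the enzyme that adds geranylgeranyl to GBP2 and GBP5, fell by 0.45 (limma adjusted p = 0.0441). A second PGGT1B probe had a log2 difference of 0.16 and was not called. RCE1, the protease that trims the CaaX end, fell by 0.26, and its other kept probe, with a log2 difference of -0.27, was not called. FNTB, the beta subunit of the farnesyltransferase that modifies GBP1, had a log2 difference of -0.04 with an interval from -0.30 to 0.21 (limma adjusted p = 0.788). The calls in this list were lost in several other settings, PGGT1B in 7, RCE1 in 7 and FNTA in 5 of 18.

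Genes through which GBPs act in cell death were called in both directions. Of 8 tested, 2 were higher and 1 lower, or 1 and 3 under median scaling, beside 20.9% and 21.4% of all tested genes. The median log2 difference of the 8 was 0.14. CASP4 had a log2 difference of -0.15 with an interval from -0.38 to 0.08 (limma adjusted p = 0.274) and 0.25 on a second probe, not called either, and GSDMD, the pore-forming protein it cleaves, one of 0.26 with an interval from -0.09 to 0.60 (limma adjusted p = 0.210). The brighter CASP4 probe was called lower under median scaling (log2 difference -0.34, limma adjusted p = 0.0417), and GSDMD was called higher in 1 of 18 other settings. NLRP3, an inflammasome sensor, fell by 1.06 (SE 0.10, limma adjusted p = 1.67e-04), whereas the cytokine IL1B and the adaptor PYCARD rose by 0.55 and 0.44. The PYCARD call was lost under median scaling (adjusted p = 0.0703), and a second PYCARD probe, with a log2 difference of 0.26, was not called.

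Of 12 other partners and targets of GBPs, all tested, 8 were higher and 1 lower, beside 20.9% higher and 21.4% lower of all tested genes. The median log2 difference of the 12 was 0.35. Median scaling moved the median over all kept probes by -0.14 and left 4 of the 12 higher. PIM1, the kinase that phosphorylates GBP1, rose by 1.43 (SE 0.12, limma adjusted p = 1.37e-04; 0.61 at its lowest in other settings), and SFN, the 14-3-3 protein that holds the phosphorylated form, was not called, with a log2 difference of 0.17 (adjusted p = 0.396). FURIN, the protease held in check by GBP2 and GBP5, rose by 0.63 (SE 0.13, limma adjusted p = 0.00625). UBE2L6, the conjugating enzyme for ISG15, and LGALS3, a galectin that marks broken vacuoles, rose by 1.20 and 0.90. The autophagy receptor SQSTM1 fell by 0.28, a call lost in 8 of 18 other settings.

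**Figure D5:**
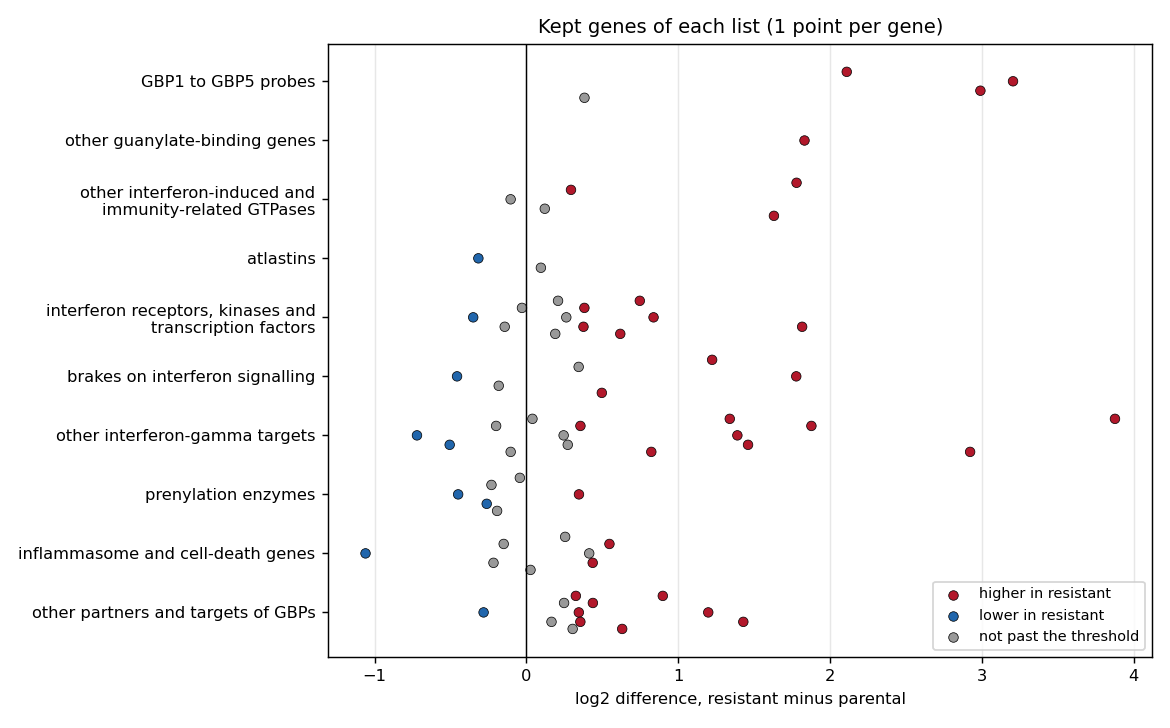
Log2 difference (resistant minus parental) of the kept GBP probes and of each tested gene in the lists of related genes, red for higher, blue for lower and grey for not past the threshold. The GBP1 and GBP2 probes lie between 2.11 and 3.20, and of the listed genes only UBD, at 3.88, lies above them.

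Markers of other cells were measured beside the GBPs, since leukocytes and endothelium also make them. Of 14 leukocyte markers on the array 2 were detected on all arrays, and neither CD68 (log2 difference 0.25, limma adjusted p = 0.0603) nor FCGR3A (log2 difference -0.15, adjusted p = 0.557) was called. CD68 was called in 7 of 18 other settings (adjusted p from 0.0144 to 0.767). The pan-leukocyte gene PTPRC, the monocyte genes CD14 and LYZ and all 7 endothelial markers were detected on no array. Sums of intensity are given before normalisation, where the resistant arrays had the lower mean over all probes. The summed intensity of the 14 leukocyte markers ran from 2262 to 2517 on the resistant arrays and from 2434 to 2518 on the parental arrays. For the 7 endothelial markers it ran from 762 to 805 on the resistant and from 804 to 838 on the parental arrays. Of 10 fibroblast markers MFAP5 rose by 3.06 on the log2 scale (2.35 at its lowest in other settings). FBLN1 was detected on no resistant array, entered the test through the parental arrays alone and was at least 1.13-fold lower. Its log2 fall was 0.50 in the main processing and 0.17 at its smallest in other settings. PDGFRA, DCN, LUM, THY1, DPT and COL14A1 were detected on no array. The summed intensity of the 10 ran from 1987 to 2207 on the resistant and from 1314 to 1394 on the parental arrays. MFAP5 alone averaged 1090 on the resistant and 245 on the parental arrays. The part of these markers in the GBP rises was not tested.

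The genes whose arrays followed a member most closely were found by the root mean square difference, over the 6 arrays, between the 2 genes' log2 deviations from their own parental means, among 10671 other genes. For the brighter GBP1 probe these were the microfibril gene MFAP5 at 0.11, CXCL10 at 0.11 and ISG15, a ubiquitin-like modifier, at 0.14. For the second GBP1 probe they were the RNA sensor IFIH1 at 0.21, the collagen chain COL1A1 at 0.26 and the actin-bundling gene LCP1 at 0.31. For GBP2 they were MEX3B, SH3RF2 and WDR72, at 0.08, 0.09 and 0.11, and 29 genes lay within 0.25. For GBP3, whose difference was small, they were IQGAP1, AQP7P1 and GARIN5A, all at 0.06, and 711 genes lay within 0.25. With 2 groups of arrays this measure mostly ranks genes by the size of their difference between the lines, and it is given as a description.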

How the data were processed

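Total RNA of 3 resistant and 3 parental Ju77 samples, grouped by their titles, was hybridised as biotin-labelled cRNA to Illumina arrays, per the labels' protocols. The deposited table holds 1 intensity per probe and array (47225 probes) beside a detection p-value, which moves in steps of 1 in 770, and its header names no background correction. A second deposited table holds log2 values of the same arrays, not centred by gene, with array medians from 6.98 to 6.99. How the authors made them is not stated in the labels.

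For 3269 rows in succession the intensity and detection columns were exchanged, with the intensity as its natural log. They were restored by exponentiation, after which the rank correlation with the deposited log2 values was 1 on every array, against at most 0.906 for base 2. No GBP probe is among them.

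Intensities were processed with neqc (normexp from the detection p-values, offset 16, quantile normalisation) in limma 3.58.1 and R 4.3.3. The filter kept 17843 probes, those with a detection p-value under 0.05 throughout 1 group or both. They were compared with lmFit and eBayes without a covariate, two-sided, with Benjamini-Hochberg adjustment over all of them at 0.05. Symbols are those of the platform annotation, brought up to date through gene identifiers in the GRCh38.p14 table (99.9% of 30111 probes with 1 gene). Another 8 probes had several genes and 17106 were unlisted, and none of these was named. A gene in a list is represented by its brightest kept probe. A gene detected on no array of its dimmer group is given as at least N-fold: the mean of the brighter group is set against a floor, which on each dim array is the gene's own signal or the lowest detected one, whichever is larger. Lists were described by counts and medians, without a set test. The functions were tested on simulated data.

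Named genes are all GBP probes, a set named whatever its values (among them IRF1, STAT2, IRF9, JAK2, SOCS1, GBP6, GBP7, MX1, MX2, CASP4, GSDMD, FURIN, PIM1, PGGT1B and FNTB), for each described list its called genes with the largest changes (at most 4), called neighbours, and the 3 genes nearest each member. Other genes were named after their values were seen, among them undetected and uncalled genes and markers. Some items are not reported here. The members and lists were chosen with earlier results of these data known. No 2 arrays held identical values. Motifs were matched with Python 3.11.15 and promoters aligned with Biopython 1.88.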

Additional observations from a re-analysis of the deposited data

How the results depend on the processing

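The 18 other settings were no background correction, normexp offset 50, median scaling, cyclic loess, the deposited log2 values, no detection filter, detection p under 0.01, 1 probe per gene, exchanged rows left out, an intensity trend, array weights, a replicate block and each array left out in turn. The deposited values replace background correction and normalisation together, and the detection filter was applied anew when an array was left out. Both GBP1 probes and GBP2 stayed higher and past the threshold in every setting that tested them, with log2 differences of 2.34 to 3.11 and 2.11 to 3.33 for GBP1 and 1.05 to 2.21 for GBP2. The second GBP1 probe is not part of the fit with 1 probe per gene. GBP3 stayed positive and not called, from 0.14 to 0.53 (adjusted p from 0.0886 to 0.434), and was 0.18 without resistant replicate 1. Median scaling took the share of calls that are higher from 48.0% to 26.5%, and the count of lower interferon gamma targets from 2 to 4. Leaving out an array gave 0 to 1 lower genes among interferon receptors, kinases and factors (0 without resistant replicate 2 or parental replicate 1), and 1 to 2 lower interferon gamma targets (1 without the same arrays). Other calls of named genes were lost in 2 settings for ATL3, 2 for NFKB1, 3 for PTPN2, 2 for ICAM1 and 1 for FBLN1. Counts of called probes ran from 4838 to 7626, against 6925. Of 396 counts for the remaining lists under these settings, 52 differed from the main count by more than 1.5 times, most of them counts of 0 to 4 genes. The cause was not tested. Replicate numbers did not pair the arrays: same-numbered arrays' deviations correlated from -0.06 to 0.06. With the replicate block 6436 probes were called, and GBP1 (2.99 and 3.20), GBP2 (2.11) and GBP3 (0.38) kept their side of the threshold. Signals of GBP4 and GBP5 near background limit what can be said of them.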
